A study of Mus musculus with 12 samples.

Results

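Mucins are large glycoproteins whose central stretches, rich in serine and threonine, carry dense O-linked sugars. The 10 mucin genes described here are Muc1, Muc2, Muc4, Muc5b, Muc6, Muc13, Muc15, Muc16, Muc19 and Muc20. They were chosen by symbol, through the Gencode mouse annotation, from the 56065 gene identifiers of the count table, by a rule that uses no expression value, although earlier results of these data were known when they were chosen. Each symbol matched 1 identifier, and 7 of the 10 passed the filter on low counts that left 17893 genes for testing.

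The data are bulk RNA-sequencing of 12 submandibular glands (SMGs) from mice aged 8 weeks, with 3 mice in each of 4 groups. Each sex was represented by wild-type C57BL/6J mice and by mice of the C57BL/6J-Pou2f3em1Cbwi/J line, which is called knockout here. Pou2f3 is the transcription factor that defines tuft cells (TCs), rare chemosensory cells of the ducts, and the study asked what their loss does to the gland in each sex. The line lacks Pou2f3 in every cell of the body, so an effect on a gene in the whole gland is not tied to the gland's own TCs, and no transgene or Cre driver was used.

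Mucins fall into 2 classes. Gel-forming mucins (Muc2, Muc5b, Muc6 and Muc19) are secreted and link end to end into the polymers that give mucus its viscosity, while membrane mucins (Muc1, Muc4, Muc13, Muc15, Muc16 and Muc20) are anchored in the apical membrane, where they form a barrier and touch growth factor receptors. In mouse salivary glands Muc19 is known as the gel-forming mucin of the mucous cells of the sublingual gland, whereas the seromucous acini of the SMG secrete a small soluble mucin, Muc10, encoded by Prol1. In rodents the SMG also differs between the sexes, since androgens enlarge the granular convoluted tubules of males.

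The 10 genes lie on 6 chromosomes of GRCm39. The gel-forming mucins Muc6 (chr7:141213373-141241641, minus strand), Muc2 (chr7:141276583-141308430, plus strand) and Muc5b (chr7:141392807-141426821, plus strand) lie in the same stretch of chromosome, and Muc19 is at chr15:91722468-91832447 on the plus strand. Of the membrane mucins, Muc4 (chr16:32555015-32602754, plus strand), Muc20 (chr16:32597793-32617831, minus strand) and Muc13 (chr16:33614407-33640304, plus strand) share a chromosome. Muc1 is at chr3:89136354-89140688 and Muc15 at chr2:110551685-110569872, both on the plus strand, and Muc16 is at chr9:18406745-18585826 on the minus strand.

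The repeats that make these proteins mucins are visible in the coding sequences, which were read from Gencode M39 on GRCm39. A coding base was counted as repeated where it lay in a window, at least 120 bases long, that matched the sequence 1 repeat period further on at 80% or more of its bases. Such repeats took up 79.7% of the 22575 coding bases of Muc19, with a period of 489 bases. They took up 45.97% of Muc6, 44.7% of Muc4, 37.8% of Muc13, 36.7% of Muc1, 27.6% of Muc2, 15.5% of Muc5b and 5.75% of Muc16, and none was found in Muc15 or Muc20. The copies printed next belong to the 3 mucins on which the results turn, Muc13, Muc2 and Muc19. All lie on the plus strand, 5′ to 3′, and capitals mark bases that differ from copy 1.

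The 81-base unit of Muc13, on chromosome 16, was identical over the 3 adjacent copies that begin at chr16:33619371-33619451.
Muc13 copy 1: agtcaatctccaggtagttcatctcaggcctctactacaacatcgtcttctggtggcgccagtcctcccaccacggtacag
Muc13 copy 2: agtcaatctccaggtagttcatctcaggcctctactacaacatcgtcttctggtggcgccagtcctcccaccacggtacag
Muc13 copy 3: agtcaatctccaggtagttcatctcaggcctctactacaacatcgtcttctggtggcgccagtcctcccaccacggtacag

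The 24-base unit of Muc2, on chromosome 7, varied by 3 to 5 bases over the 3 adjacent copies that begin at chr7:141291151-141291174.
Muc2 copy 1: acttcaccaaccaccccattaacc
Muc2 copy 2: acCtcaccaaccaccTcaCCaacA
Muc2 copy 3: acCtcaccaaccaccccatCaacA

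Of the 489-base unit of Muc19, on chromosome 15, the first 120 bases are shown from copies at chr15:91790778-91790897 and chr15:91791267-91791386, which were identical.
Muc19 copy 1: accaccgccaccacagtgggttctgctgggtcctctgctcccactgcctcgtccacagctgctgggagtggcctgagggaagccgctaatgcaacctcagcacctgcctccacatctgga
Muc19 copy 2: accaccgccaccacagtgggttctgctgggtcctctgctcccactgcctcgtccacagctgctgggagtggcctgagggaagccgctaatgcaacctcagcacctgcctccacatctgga

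Depth was 47032175 to 67882207 estimated counts per library. Rn7s1, a copy of the signal recognition particle RNA, took 27.0 to 39.1% of these in females and 11.8 to 26.9% in males, which left 31077287 to 44809044 and 38217647 to 53389185 counts for all other genes, and its part in the results was not tested. Where no count was found, as many as 3 remain possible by counting error, and in these libraries 3 counts correspond to 0.0442 to 0.0638 counts per 1e6 of the library total. The CPM values (counts per 1e6) in the rest of the text are instead scaled to library sizes adjusted by the trimmed mean of M-values (TMM). Of the 8 acinar markers, Dcpp1, Dcpp2 and Dcpp3 were at 3 counts or fewer in some libraries, and all 8 summed to 9960 to 56253 CPM, most of it from Prol1. The 6 granular convoluted tubule markers summed to 4386 to 9161 CPM in females and 53091 to 96305 CPM in males. Pou2f3 itself had 1, 0 and 2 counts (wild type) and 0 (all 3 knockouts) in females, and 1, 10 and 0 (wild type) and 0, 3 and 1 (knockout) in males, so its level could not check the genotype labels at this depth. Of the 6 TC markers, Gnat3 and Il25 were undetected throughout, and Trpm5 had at most 4 counts in a library. The whole list summed to 15.5 to 19.7 CPM (wild type) and 18.8 to 22.1 CPM (knockout) in females. In males it summed to 7.80 to 9.19 and 7.97 to 9.58 CPM. Most of this came from Dclk1, with 863, 876 and 588 counts in female wild type and 1051, 1198 and 845 in female knockout. Avil had 16, 2 and 6 counts in female wild type and 55, 25 and 32 in female knockout. Long non-coding RNAs took 0.445 to 0.837% of the counts in the female wild-type libraries and 1.08 to 1.90% in the other 9, and the part of this in the results was not tested.

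Several libraries held genes of tissues next to or far from the SMG. In female knockout 2, all 10 genes of an intestinal list drawn up after the counts were seen were at their highest, and summed to 27.9 CPM against at most 2.36 in any other library. In male wild type 3, all 7 genes of a neuronal list drawn up the same way were at their highest, among them Slc17a7 with 272 counts against at most 5 elsewhere. Of the 4 parotid markers in the table, Amy1 (56718 counts) and Bpifa2 (125303) were highest in male knockout 2 and next highest in male wild type 3 (8714 and 35484), and Prh1 had 1 count in male knockout 2 and 0 elsewhere. Car6 was at its lowest in male knockout 2 (270929), and the whole list summed to 7345 CPM there, between the lowest (4714) and the highest (9801) of the other males. For the mucins and the lists, the calls are given with and without these 3 libraries. Not every log2 fold change is given without them, and those of Muc20 are not. Other libraries were not free of such genes, since Nkx2-3 of the sublingual gland had 44 counts in female knockout 3, and the adipocyte gene Adipoq had 261 in female wild type 3 and 184 in male knockout 3.

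Counts of the 10 mucins spanned from 0 to 518166 per library. Muc6 had 0 counts in all 12 libraries, Muc5b had 2 counts in all, and Muc4 had 14 counts in all, 11 of them in male wild type. These 3 were not tested, and their levels were at or near the detection limit, so that no difference between groups was judged at this depth. The counts of Muc4 in males were 2, 7 and 2 in wild type and 0 in every knockout. Muc5b, a gel-forming mucin of airway and salivary mucous glands, and Muc6, of gastric and duodenal glands, were thus at or under 3 counts in every library. Muc4, a membrane mucin that binds Erbb2, exceeded 3 counts in 1 library, male wild type 2, with 7 counts.

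**Figure D1:**
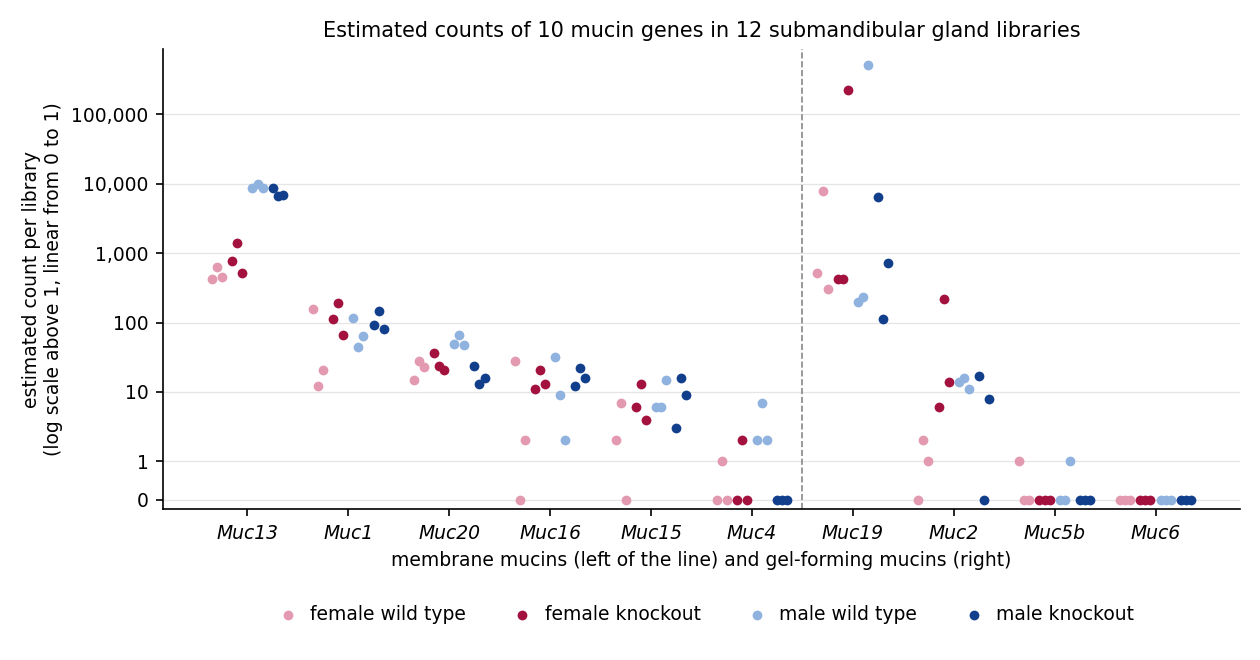
Estimated counts of the 10 mucins (vertical axis, log scale above 1 and linear from 0 to 1) in the 12 libraries, with 1 point per library coloured by group, membrane mucins on the left and gel-forming mucins on the right. Muc13 is higher in all males than in all females, Muc19 spreads from 195 to 518166 counts within male wild type alone, and Muc5b and Muc6 lie at 0 or 1.

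Compared per length, as TMM-adjusted CPM divided by the kilobases of a gene's exons, Muc13 had the highest mean in female wild type and male knockout, and Muc19 in the other 2 groups. Muc13 stood at 3.78 ± 0.992 CPM per kb (SD, n = 3) in female wild type, 5.51 ± 2.12 in female knockout, 41.5 ± 4.43 in male wild type and 39.2 ± 5.68 in male knockout. Muc1 had the third highest mean in all 4 groups, with 0.550 ± 0.656, 0.966 ± 0.373, 0.436 ± 0.194 and 0.72 ± 0.244 CPM per kb in the same order, and every Muc1 library lay below every Muc13 library of its own group. Muc20 came next in all 4 groups, between 0.0699 ± 0.0228 and 0.186 ± 0.0395 CPM per kb. Muc15 and Muc16 stayed at or below 0.0420 ± 0.0296 CPM per kb, and in female wild type the libraries of Muc15, Muc16, Muc2 and Muc4 overlapped from one to the next in this order. Muc19 averaged 71.7 ± 124 CPM per kb in female knockout, 108 ± 187 in male wild type, 2.80 ± 4.18 in female wild type and 1.70 ± 2.44 in male knockout. Its libraries overlapped with those of Muc13 in the first 3 of these groups, and in male knockout all 3 lay below.

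Per length, the group means of the 10 mucins were small beside those of the soluble mucins of the gland. Prol1, which encodes Muc10, held 412582 to 2028833 counts per library, and Mucl2, a mucin-like secreted protein gene, held 4079887 to 20612661, which was 7.62 to 33.6% of a library. In male wild type 3 the counts of Muc19 (518166) exceeded those of Prol1 (490267). Per length Prol1 stood at 34457 ± 1949 CPM per kb in female wild type and 8229 ± 2758 in male wild type (SD, n = 3).

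Muc13, a membrane mucin with epidermal growth factor-like domains best known from the intestinal surface, was higher in males than in females in both genotypes. Its counts were 424, 633 and 461 in female wild type, 771, 1414 and 517 in female knockout, 8584, 9899 and 8641 in male wild type, and 8611, 6704 and 6969 in male knockout. Every male library exceeded every female library in both genotypes, as did 26.7% of all genes in wild type and 27.3% in knockout. Of the 7 tested mucins, 3 (Muc2, Muc13 and Muc20) lay wholly higher in wild-type males, and in knockout Muc13 lay wholly higher and Muc20 wholly lower. On the TMM-adjusted scale Muc13 averaged 11.5 ± 3.01 CPM in female wild type and 126 ± 13.4 CPM in male wild type (SD, n = 3). The male level in wild type was 11.0-fold that of the female (log2 fold change 3.46, SE 0.27, adjusted p = 8.5e-07, edgeR quasi-likelihood test with Benjamini-Hochberg adjustment over all genes tested). It was the only mucin called in that comparison, 1 of 7 tested, against a background of 20.5% of all genes called higher and 16% called lower. The call held in all 22 alternatives. In knockout mice the sex difference was 2.83 (log2 fold change, SE 0.26, adjusted p = 3.6e-06), a comparison added after the data were seen, in which 23.2% of genes were called higher and 20.3% lower. Those were 4155 and 3635 genes, and under upper-quartile normalization 3054 and 4985, with the median of all genes moving from −0.02 to −0.18 and Muc13 still called higher. In bulk tissue, a larger number of cells of one type and more RNA per cell cannot be told apart.

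**Figure D2:**
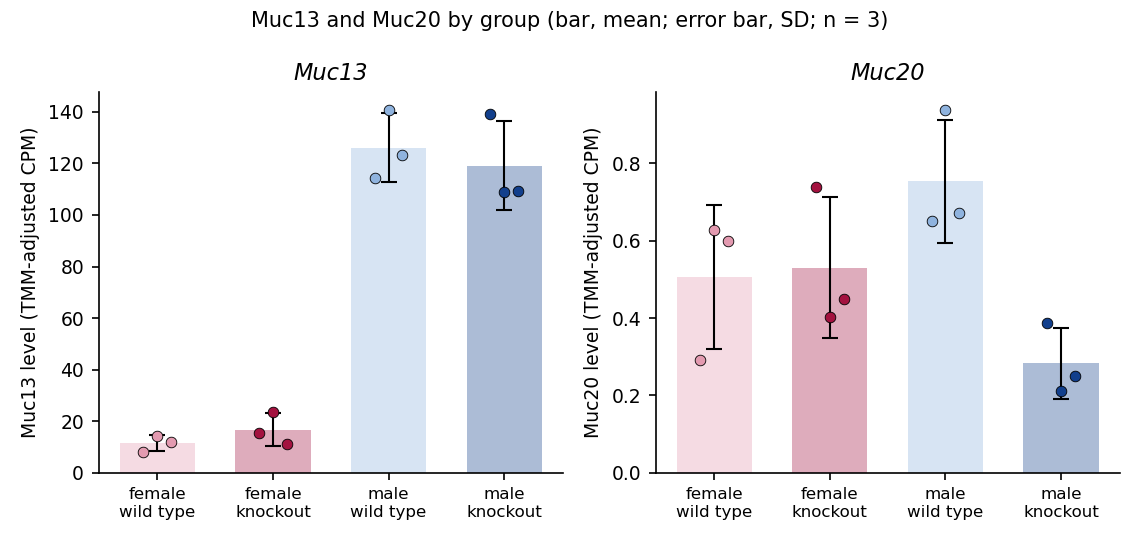
TMM-adjusted CPM of Muc13 (left) and Muc20 (right) in the 4 groups, with bars from 0 showing the mean, error bars the SD and points the 3 libraries. Muc13 averages 11.5 and 16.7 CPM in females against 126 and 119 CPM in males, and Muc20 is lower in all 3 male knockout libraries than in all 3 male wild-type libraries.

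The sex difference of Muc13 ran beside those of several marker lists, among them that of the granular convoluted tubule. The 6 markers of that cell type summed to 4386 to 8315 CPM in female wild type and 53091 to 96305 CPM in male wild type. Klk1 did not share this rise, with 199567, 329011 and 256958 counts in female wild type and 216952, 217012 and 195263 in male wild type. Each of the other markers of that list was higher in every male library. Duct markers summed to 324 to 399 CPM in female and 445 to 470 CPM in male wild type, and myoepithelial markers to 128 to 172 and 353 to 427 CPM, and both lists were also higher in all male than in all female knockouts. Elf5 of the duct list was lower in males, with 5032, 4718 and 4644 counts in female wild type and 3395, 3509 and 2964 in male wild type. Acinar markers as a list were lower in males, with 48484 to 56253 CPM in female wild type and 12188 to 18888 CPM in male wild type. The 3 genes whose log2 CPM followed Muc13 most closely over the 12 libraries were Entrep1 (Pearson r = 0.997), Slc2a4 (r = 0.996) and Klk1b5 (r = 0.995), the last being a kallikrein of the tubule. These are descriptions over libraries that share the split between the sexes, and the part of these cell types in the Muc13 level was not tested.

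The 250 bases before the start of Muc13 (GRCm39, plus strand, chr16:33614157-33614406) are shown because its level differs between the sexes. Both strands were searched for AGAACA, the androgen receptor half-site, for TATAAA and for ATGCAAAT, the octamer of POU factors, and none of these letters occurs in the window. The same search found AGAACA in 15.5%, TATAAA in 12.5% and ATGCAAAT in 1.52% of 21770 windows of the same length.
Muc13 upstream: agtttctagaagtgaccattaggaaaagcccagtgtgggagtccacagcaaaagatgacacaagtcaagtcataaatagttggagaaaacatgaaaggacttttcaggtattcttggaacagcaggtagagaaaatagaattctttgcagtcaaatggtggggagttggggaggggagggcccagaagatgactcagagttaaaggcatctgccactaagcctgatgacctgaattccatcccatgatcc

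The genotype difference of Muc13 did not pass the test in either sex. In females the knockout averaged 16.7 ± 6.43 CPM against 11.5 ± 3.01 in wild type, and the groups overlapped, since knockout 3 (11.1 CPM) lay below wild type 2 and 3 (14.20 and 12.02 CPM). The log2 fold change was 0.55 (SE 0.25, adjusted p = 0.10), with an adjusted p of 0.0497 under upper-quartile normalization, 0.048 without the filter on low counts, and 0.0346 without knockout 3 (log2 fold change 0.72). In males the knockout averaged 119 ± 17.2 CPM against 126 ± 13.4, a log2 fold change of −0.08 (SE 0.24, adjusted p = 0.93). The difference between these effects was 0.63 (SE 0.34, adjusted p = 0.19).

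Muc20, a membrane mucin that binds the hepatocyte growth factor receptor Met, had 15, 28 and 23 counts in female wild type and 37, 24 and 21 in female knockout. In males it had 49, 66 and 47 counts in wild type and 24, 13 and 16 in knockout. The male groups did not overlap, with 0.652 to 0.938 CPM in wild type and 0.211 to 0.387 CPM in knockout. Muc20 was the only mucin of the 7 whose knockout libraries all lay below or all above the wild type in males, where 7.95% of all genes lay wholly below and 6.51% wholly above. Marker lists of other cell types also set the male groups apart. The 4 adipocyte markers summed to at most 0.414 CPM in wild type and to 0.855 to 17.5 CPM in knockout, and the 4 macrophage markers to 38.8 to 47.9 and 51.4 to 87.0 CPM, both highest in knockout 2 and 3, where Muc20 was lowest. The 5 lymphocyte markers summed to 0.0399 to 0.128 CPM in wild type and 0.129 to 0.276 CPM in knockout. None of them had more than 9 counts in a male library, so no difference was judged for that list. The sublingual and goblet lists were lower in knockout, and the part of all these cells in the Muc20 values was not tested. The log2 fold change was −1.40 (SE 0.40, unadjusted p = 0.0038, adjusted p = 0.19), which did not pass the test. In females it was 0.07 (SE 0.40, adjusted p = 0.91). The difference between the sexes was 1.48 (SE 0.56, adjusted p = 0.069), and it passed when every library had to hold at least 10 counts (1.49, adjusted p = 0.040), with 14.8% of all genes called higher and 17% lower, and without male knockout 1 (1.76, adjusted p = 0.048), with 13.4% and 12.2%. Over all comparisons and alternatives, 3 Muc20 values in all came to pass the test. In wild type, all 3 male libraries exceeded all 3 female libraries (log2 fold change 0.58, SE 0.39, adjusted p = 0.26), and in knockout all 3 males lay below all 3 females (−0.90, SE 0.41, adjusted p = 0.090). Of all genes, 26.7% lay wholly above in wild-type males and 27.5% wholly below in knockout males. The gene overlaps Muc4 on the opposite strand over 4962 bases, with 381 exon bases in common. Muc4 had 2, 7 and 2 counts in male wild type and 0 in all 3 male knockouts. The part of the shared bases in the Muc20 counts was not tested.

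Over all 7 tested mucins, 0 were called in male knockouts against wild type by edgeR, and 0 of the 5 to which DESeq2 gave an adjusted p, while 1, Muc20, had an unadjusted p under 0.05. In that comparison edgeR called 0.101% of all genes higher and 0.134% lower, and DESeq2 1.22% and 0.98%. DESeq2 was fitted here to all 4 groups at once and not to the males alone. The paper, which also used DESeq2, reports reduced Muc20 expression in male knockouts. Met, the partner of Muc20, had 2956 to 3122 counts in female wild type and 2165 to 2922 in female knockout (log2 fold change −0.57, adjusted p = 0.0021). In males Met had 4449, 5164 and 4812 counts in wild type and 3954, 3664 and 3592 in knockout, and was not called by edgeR.

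Muc19 was the most uneven of the mucins. Its counts were 513, 7767 and 304 in female wild type, 431, 426 and 228637 in female knockout, 195, 231 and 518166 in male wild type, and 6388, 111 and 731 in male knockout. A single library therefore held nearly all Muc19 of the female knockout, and another nearly all of the male wild type. In those libraries Muc19 made up 99.7% and 98.3% of the counts of the 10 mucins. No group was separate from another, and none of the comparisons passed the test: the log2 fold change was 4.68 in females (SE 2.87, adjusted p = 0.22), in males −5.99 (SE 3.05, adjusted p = 0.49) and 5.27 for male wild type against females (SE 2.95, adjusted p = 0.18). Without female knockout 3 the female value was −3.07 (adjusted p = 0.43), and without male wild type 3 the male value was 3.72 (adjusted p = 0.77) and the value between the sexes −4.45 (adjusted p = 0.24). The difference between the genotype effects was 10.67 (SE 4.19, adjusted p = 0.076). It is made of the female and male values above, whose signs changed without female knockout 3 and without male wild type 3.

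The libraries with high Muc19 held a set of other genes at high counts. A2ml1, which encodes a protease inhibitor of the alpha-2-macroglobulin family, had 65567 counts in female knockout 3 and 136975 in male wild type 3, then 2378 in female wild type 2 and 1734 in male knockout 1, and at most 137 in the other libraries. These are also the 4 highest libraries for Muc19. Over the 12 libraries its log2 CPM followed Muc19 with a Pearson r of 0.984, followed by B3gnt6 (r = 0.936), the core 3 enzyme of mucin O-glycans, and the predicted gene Gm2163 (r = 0.906). B3gnt6 had 226 and 550 counts in female knockout 3 and male wild type 3 and at most 13 in the other libraries. Galnt12, an enzyme that starts O-glycan chains, had 145 and 336 counts there and at most 78 elsewhere.

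Markers of the mucous acini of the sublingual gland moved with Muc19 in part. Nkx2-3, a homeobox factor of the sublingual gland, had 44 counts in female knockout 3, 104 in male wild type 3, 2 in female wild type 2, and 0 in the other 9 libraries. Lman1l had 956 and 1731 counts in the same pair, against 265 to 421 in the other females and 23 to 83 in the other males. Dcpp2 and Dcpp3, which encode demilune cell and parotid proteins and stand on the acinar list, had 19769 and 21797 counts in female knockout 3 and 50563 and 52586 in male wild type 3, and at most 1264 elsewhere. Dcpp1 of the same family had 5199 and 13547 counts in these libraries. It also had 3681 counts in male knockout 2, the library with the least Muc19 (111 counts), and at most 531 in the rest. The other listed markers of these acini, Spdef, Agr2 and Creb3l1, were also high in libraries with little Muc19, and the whole list of 5 summed to 215 to 228 CPM (wild type) and 129 to 201 CPM (knockout) in females, and 67.3 to 116 CPM (wild type) and 46.3 to 64.4 CPM (knockout) in males. The part of sublingual tissue in the Muc19 counts was not tested.

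**Figure D3:**
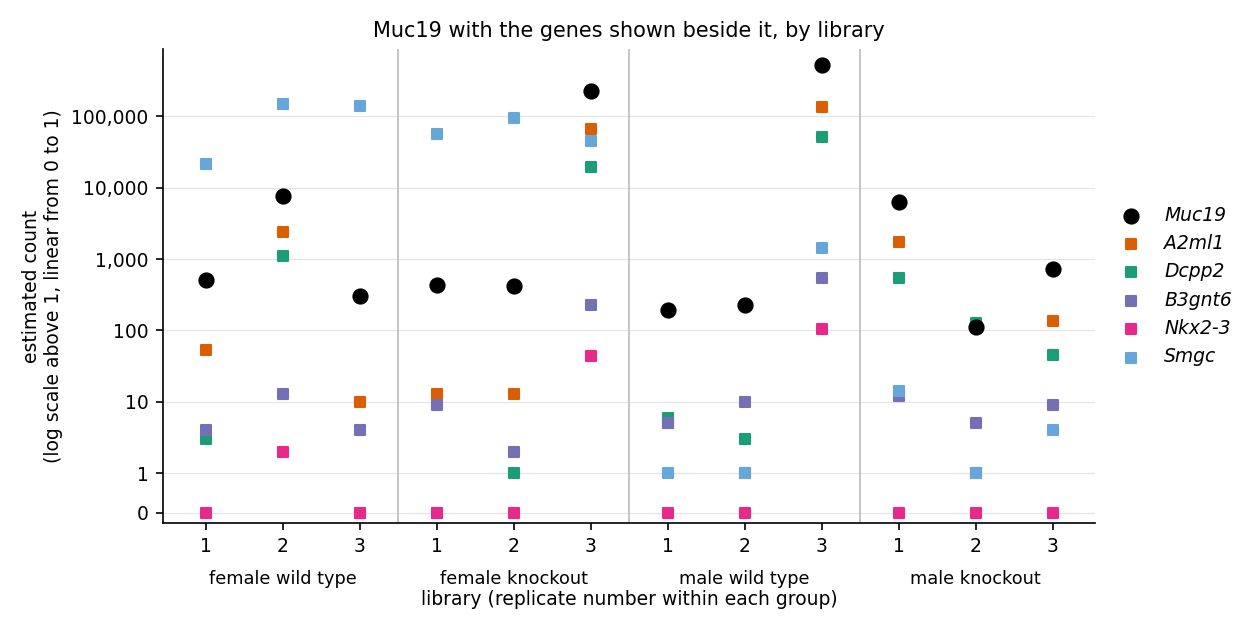
Estimated counts (vertical axis, log scale above 1 and linear from 0 to 1) of Muc19 (large circles), A2ml1, Dcpp2, B3gnt6, Nkx2-3 and Smgc (squares) in the 12 libraries, ordered by group and replicate number. Muc19, A2ml1, Dcpp2, B3gnt6 and Nkx2-3 are highest in female knockout 3 and male wild type 3, while Smgc is high in all 6 female libraries.

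Muc19 shares its first exon with Smgc, a gene for a secreted submandibular gland protein. Both start at the same base (GRCm39, chr15:91722468), Muc19 running to 91832447 and Smgc to 91745636, and they have only the 156 bases of that exon in common. Smgc had 21282, 149266 and 139778 counts in female wild type, 56421, 94406 and 44864 in female knockout, 1, 1 and 1428 in male wild type, and 14, 1 and 4 in male knockout. Its counts were thus high in all 6 female libraries, and in males above 14 only in male wild type 3, the library with the most Muc19. Smgc was lower in wild-type males than females (log2 fold change −8.50, SE 1.91, adjusted p = 0.0038). Its size depended on the processing, with values from −17.2 to −7.58 over 21 alternatives, in all of which it was called. Between genotypes in females Smgc did not pass the test (−1.01, SE 1.38, adjusted p = 0.60). The 2 products of this start therefore had different patterns over the same libraries, apart from the reads of the shared exon, whose assignment is uncertain. The 250 bases before the common start (GRCm39, plus strand, chr15:91722218-91722467) hold none of the 3 motifs searched for in Muc13, and are shown because 1 start serves both genes.
Muc19 and Smgc upstream: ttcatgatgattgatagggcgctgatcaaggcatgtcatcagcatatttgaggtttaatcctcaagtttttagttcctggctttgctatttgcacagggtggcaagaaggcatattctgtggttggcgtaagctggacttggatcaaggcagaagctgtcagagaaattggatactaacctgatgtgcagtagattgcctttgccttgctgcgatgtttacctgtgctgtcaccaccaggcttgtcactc

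Muc2, the gel-forming mucin of intestinal goblet cells, was the mucin called in the female genotype comparison. Its counts were 0, 2 and 1 in female wild type and 6, 219 and 14 in female knockout. In males they were 14, 16 and 11 in wild type and 17, 0 and 8 in knockout. All 3 female knockout libraries lay above all 3 female wild-type libraries, as did 25.2% of all genes, and 219 of the 239 counts of the group came from knockout 2. The log2 fold change in females was 5.80 (SE 1.49, adjusted p = 0.0090), and Muc2 was the 1 mucin of 7 called in a comparison in which 17.6% of all genes were called higher and 19.3% lower. These shares were 3158 and 3453 genes, and under upper-quartile normalization 3962 and 2679, with the median of all genes moving from 0.03 to 0.13, while Muc2 stayed higher. Since the wild-type group held only 3 counts, the ratio of the normalized counts was 68.5 with a 95% interval of 23.2 to 334 for counting error alone. Without knockout 2 the log2 fold change was 3.05 (adjusted p = 0.078), the ratio was 9.26 (2.75 to 48.7), and no mucin was called. Without knockout 2, male wild type 3 and male knockout 2 together, the log2 fold change was 3.08 (SE 0.95, adjusted p = 0.035), and Muc2 was called. In a fit of the female groups alone Muc2 did not pass the filter on low counts and was not tested.

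Female knockout 2 held other genes of the intestinal lining. Of the 18 genes of the goblet and mucous programme, Tff3 (53 counts) and Clca1 (93) had 0 counts in all other libraries, and Zg16 (106) had at most 3. Fcgbp, which encodes a mucin-binding protein of goblet cells, had 617 counts there and 36 to 193 elsewhere. Spdef (1572 counts) and Creb3l1 (5543), which are also on that list, were lower there than in the other female libraries. The whole list of 18 summed to 297 CPM in female knockout 2, the lowest of the female libraries, against 333 to 592 CPM in the others. Muc17, a membrane mucin of enterocytes, had 295 counts there and 0 in the other 11 libraries. Of the genes of enterocytes, Alpi had 188 counts, Apoa4 167 and Sis 57, each with 0 in all other libraries. Atoh1, the factor that specifies secretory cells in the intestine, had 0 counts in every library. In female knockout 1 and 3, where Muc2 had 6 and 14 counts, the intestinal list of 10 summed to 2.14 to 2.36 CPM, against 1.46 to 1.75 in female wild type. In knockout 3, Akp3 had 4 counts, Fabp2 2 and Lct 1, and in knockout 1 Cdh17 and Lct had 1 each. The counts in female wild type were 2, 0 and 0 for Akp3, 1, 6 and 0 for Lct, 1, 2 and 0 for Cdh17, and 0 throughout for Fabp2. Vil1 had 93 counts in knockout 3 and 116 in knockout 1, against 57 to 77 in female wild type. Fcgbp had 141 counts in knockout 3 and 70 in knockout 1, against 62 to 75 in female wild type. The part of intestinal RNA in the Muc2 counts was not tested.

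**Figure D4:**
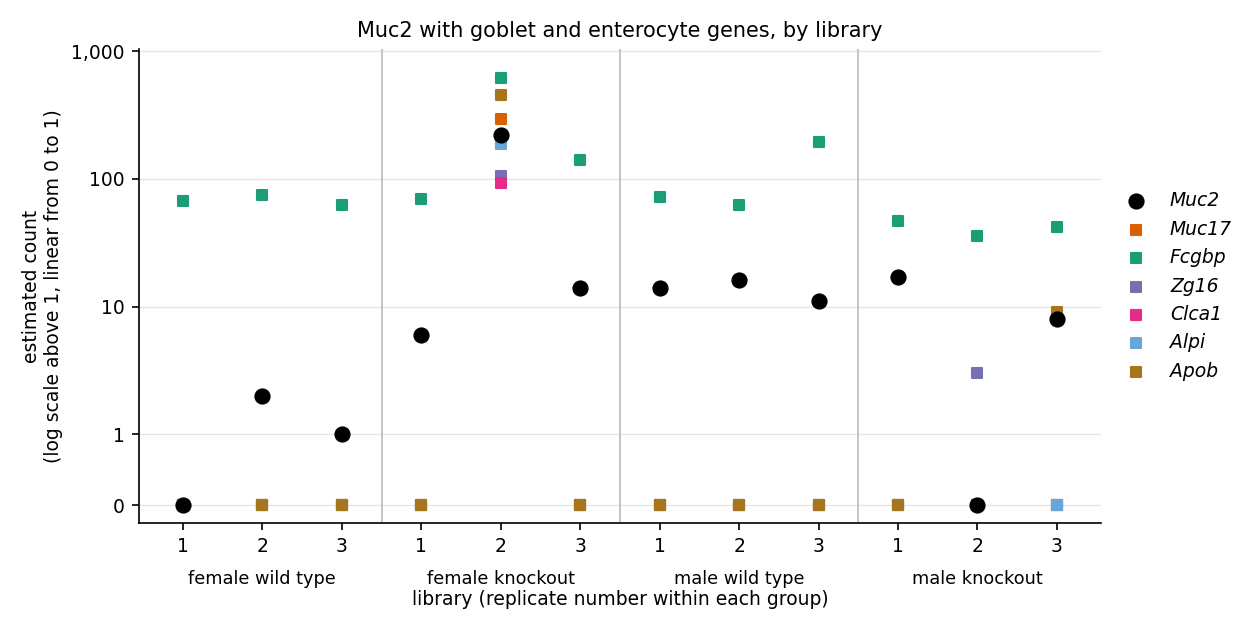
Estimated counts (vertical axis, log scale above 1 and linear from 0 to 1) of Muc2 (large circles) and of Muc17, Fcgbp, Zg16, Clca1, Alpi and Apob (squares) in the 12 libraries, ordered by group and replicate number. All 7 genes are highest in female knockout 2, where Muc2 has 219 counts, and Muc2 has 17 or fewer in the other libraries.

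The genotype effect on Muc2 was larger in females than in males by 6.31 on the log2 scale (SE 1.94, adjusted p = 0.032), and it was the 1 mucin called for this difference, against 13.4% of genes called higher and 12.4% lower. This call was lost without any 1 of 8 libraries, which were wild-type females 1, 2 and 3, knockout female 2, wild-type males 1 and 3, and knockout males 2 and 3. The values then ran from 3.53 to 7.12 and the adjusted p from 0.0505 to 0.104. With the replicate block the value was 5.58 (adjusted p = 0.066), and without the 3 libraries it was 3.13 (adjusted p = 0.12). In males alone the log2 fold change was −0.50 (SE 1.17, adjusted p = 0.92). Wild-type males exceeded female wild type in all 3 libraries, as did 26.7% of all genes, with 41 against 3 counts, a ratio of 8.51 (95% interval 2.72 to 43.0 for counting error) and a log2 fold change of 2.96 (SE 1.63, adjusted p = 0.17). In a fit of the wild-type groups alone, that difference passed the test (2.94, adjusted p = 0.019), as did 18.2% of all genes higher and 16.4% lower. With 3 counts in all in female wild type, Muc2 could pass the filter in that fit only through the male libraries, so no support is drawn from it. Between the knockout groups Muc2 was called lower in males (−3.35, SE 1.13, adjusted p = 0.029), which was lost without female knockout 2 (−0.60, adjusted p = 0.66), male knockout 2 (−2.77, adjusted p = 0.083) or male knockout 3 (−3.30, adjusted p = 0.086). It was also lost with the replicate block (−2.41, adjusted p = 0.15), in a fit of the knockout groups alone (−3.36, adjusted p = 0.054), with DESeq2 (−3.33, adjusted p = 0.051) and without the 3 libraries (−0.06, adjusted p = 0.96).

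Muc1 and Muc16 varied together from library to library, with no group set apart. Muc1, the membrane mucin of the luminal surface of most glandular epithelia, had 158, 12 and 21 counts in female wild type, 112, 189 and 66 in female knockout, 115, 45 and 64 in male wild type, and 91, 145 and 81 in male knockout. Muc16, the very large membrane mucin that carries the CA125 antigen and binds mesothelin, had 28, 0 and 2, then 11, 21 and 13, then 32, 9 and 2, and then 12, 22 and 16 counts in the same order. Both were highest in wild type 1 within the wild-type groups of each sex, and in knockout 2 within the knockout groups. The Pearson r of their log2 CPM over the 12 libraries was 0.883, the highest of any 2 of the 7 mucins, the next being 0.344 for Muc13 and Muc15.

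No comparison of Muc1 or Muc16 passed the test. For Muc1 the log2 fold change of knockout against wild type was 0.79 with an SE of 0.66 in females (adjusted p = 0.37) and 0.72 with an SE of 0.65 in males (adjusted p = 0.74). For Muc16 it was 0.45 in both sexes, with an SE of 0.998 in females (adjusted p = 0.76) and 0.96 in males (adjusted p = 0.91). Without female wild type 1, both were called higher in female knockouts, Muc1 by 2.43 (adjusted p = 0.0037) and Muc16 by 3.37 (adjusted p = 0.048), where 16.3% of all genes were called higher and 22% lower. That library also held 2233 counts of the macrophage gene Adgre1, against 256 to 681 in the others, and its 4 macrophage markers summed to 98.2 CPM, against 33.5 to 87.0 in the others. The part of this library's other RNA in the Muc1 and Muc16 counts was not tested.

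**Figure D5:**
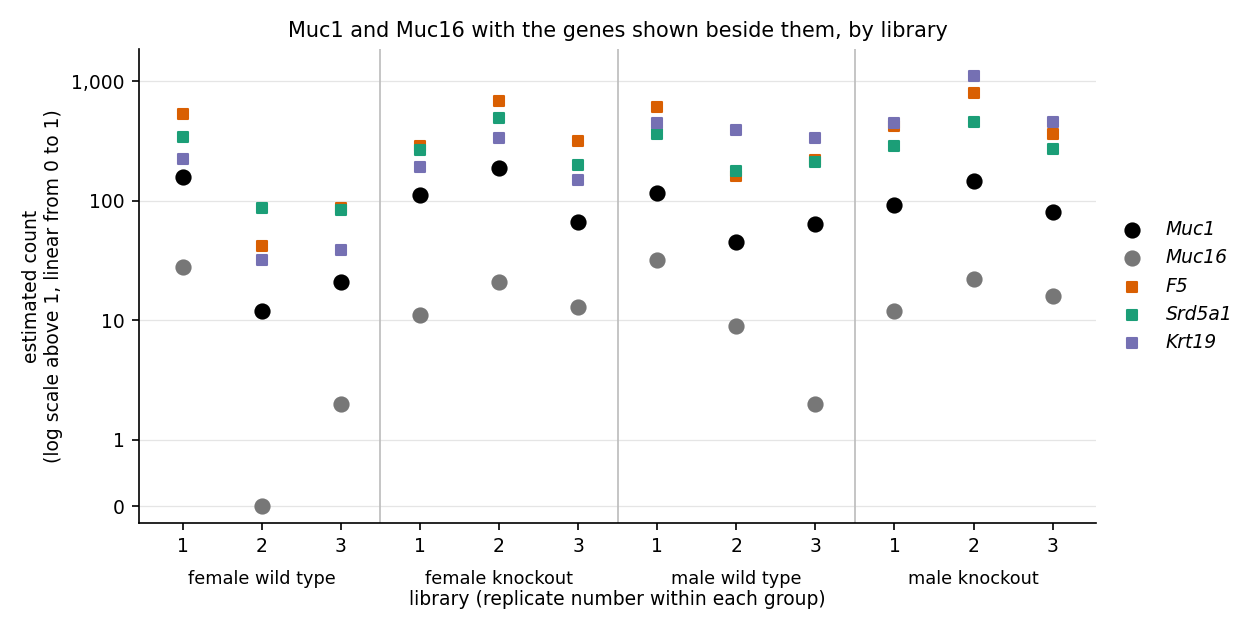
Estimated counts (vertical axis, log scale above 1 and linear from 0 to 1) of Muc1 and Muc16 (large circles) and of F5, Srd5a1 and Krt19 (squares) in the 12 libraries, ordered by group and replicate number. Muc1, F5 and Srd5a1 are low in female wild type 2 and 3, with Muc1 at 12 and 21 counts, and high in female wild type 1, with 158.

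Genes with a pattern much like that of Muc1 included Srd5a1 (r = 0.973), which encodes a steroid 5-alpha-reductase, and F5 (r = 0.959), coagulation factor V. Those near Muc16 included F5 (r = 0.921) and Iffo1 (r = 0.885). F5 had 534, 42 and 87 counts in female wild type and 288, 682 and 316 in female knockout. Krt19, a keratin of ducts, had 223, 32 and 39 counts in female wild type and 190, 332 and 148 in female knockout, while the whole duct list of 6 summed to 324 to 399 CPM and 307 to 340 CPM in these groups. Krt8, another keratin of ducts, had 4138, 4751 and 3845 counts in female wild type, with no low value in wild type 2.

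Muc15, a small membrane mucin, had 2, 7 and 0 counts in female wild type, 6, 13 and 4 in female knockout, 6, 6 and 15 in male wild type, and 3, 16 and 9 in male knockout. The groups overlapped in each of these comparisons. The log2 fold change was 1.09 with an SE of 0.90 in females (adjusted p = 0.37) and 0.24 with an SE of 0.78 in males (adjusted p = 0.94), values whose errors leave room for a change in either direction. The genes nearest to it in pattern were Hectd2 (r = 0.886), Katnal1 (r = 0.858) and Habp4 (r = 0.849). For Muc20 they included Ccar2 (r = 0.850) and Smpd5 (r = 0.840), and for Muc2 they were Rpgrip1l (r = 0.865), Cers1 (r = 0.864) and Nbn (r = 0.862). At counts this low a coefficient of this size is a description of these libraries and carries no test.

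Among other genes of the mucin family, Prol1 and Mucl2 were lower in males, and Muc21 was detected in males alone. Of 18 listed, 16 were in the table and 11 were tested. In wild type, 4 were called higher and 4 lower in males, against 20.5% and 16% of all genes, with a median log2 fold change of −0.11 against 0.06 for all genes. Prol1 (−2.07, adjusted p = 1.9e-05) and Mucl2 (−2.10, adjusted p = 6.3e-05), which encode abundant secreted products, were lower in males, and Mcam, an endothelial adhesion molecule called a mucin by its other name Muc18, was higher (3.04, adjusted p = 2.8e-06). Muc21, a membrane mucin, had 0 counts in all 6 females and 59, 132 and 64 counts in male wild type and 27, 62 and 88 in male knockout. Against a floor of 3 counts in each female library it was at least 17.5-fold higher in male wild type and at least 16.2-fold higher in male knockout.

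In female knockouts, 1 of the 11 was higher and 2 were lower, against 17.6% and 19.3% of all genes, with a median of 0.00 against 0.03. Ovgp1, oviductal glycoprotein, had 31, 11 and 18 counts in wild type and 65, 70 and 83 in knockout (log2 fold change 1.68, adjusted p = 0.0095). Cd164, a sialomucin of lysosomes and the cell surface, was lower (−0.77, adjusted p = 0.0047), as was Mucl2 (−1.01, adjusted p = 0.010), whose call was lost with at least 10 counts in every library and without female knockout 2, male wild type 3 and male knockout 2, while its values stayed between −1.22 and −0.82 over 21 alternatives. In male knockouts 0 of the 11 were called by edgeR, against 0.101% of all genes higher and 0.134% lower, and 0 by DESeq2, against 1.22% and 0.98%.

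The goblet and mucous programme, which holds transcription factors and secreted partners of mucins, held several genes that were lower in males. Of 18 genes, 7 were tested, and 0 were called higher and 5 lower in wild-type males than females, against 20.5% and 16% of all genes, with a median of −1.45 against 0.06. Spdef, a factor of mucous cell maturation, was lower by 1.64 on the log2 scale (adjusted p = 1.4e-05), and so were Creb3l1 (−1.45, adjusted p = 1.7e-05) and Xbp1 (−1.04, adjusted p = 0.00013), factors of the secretory pathway, and Agr2 (−1.69, adjusted p = 0.00025), a disulfide isomerase needed for mucin folding. In female knockouts 3 of the 7 were lower and 1 was higher, against 19.3% and 17.6% of all genes, with a median of −0.29 against 0.03. Xbp1 was lower (−1.002, adjusted p = 0.00045), and so were Agr2 (−0.98, adjusted p = 0.0096) and Creb3l1 (−0.49, adjusted p = 0.029), while the gene called higher was Fcgbp (1.69, adjusted p = 0.043), whose call was lost in 12 of 22 alternatives, among them the authors' factors, DESeq2, the replicate block, the female groups alone and without female knockout 2, with values from 0.48 to 2.08. The call of Creb3l1 was lost under upper-quartile normalization, without female wild type 2, without female knockout 2 and without the 3 libraries, with values from −0.64 to −0.35. Beside this list, the 8 acinar markers summed to 48484 to 56253 CPM (wild type) and 29487 to 36228 CPM (knockout) in females, and 12188 to 18888 CPM (wild type) and 9960 to 13423 CPM (knockout) in males. Prol1, 1 of the 8, carried most of these sums, with means of 40074, 27621, 9570 and 7670 CPM in the same order. The part of acinar RNA in the values of the goblet and mucous programme was not tested.

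The enzymes that build mucin-type O-glycans moved in both directions. Of 24, 21 were tested, and in male wild type 7 were higher and 6 lower than in females, against 20.5% and 16% of all genes, with a median of 0.26 against 0.06. Galnt2 (1.77, adjusted p = 2.8e-07), Galnt18 (2.31, adjusted p = 2.2e-06) and Galnt1 (1.42, adjusted p = 6.6e-06), which attach the first sugar, and St6galnac2 (3.04, adjusted p = 1.3e-06), which caps chains with sialic acid, were higher in males. In female knockouts 2 were higher and 5 lower, against 17.6% and 19.3% of all genes, with a median of −0.23 against 0.03. Galnt3 (−1.21, adjusted p = 0.00037), C1galt1 (−0.66, adjusted p = 0.0026), the core 1 enzyme, and its chaperone C1galt1c1 (−0.71, adjusted p = 0.0043) were lower, while Galnt18 was higher (0.78, adjusted p = 0.0090). The call of Galnt18 was lost without female knockout 1 and without the 3 libraries named, and its values ran from 0.56 to 0.94 over the alternatives.

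The machinery of secretory granule exocytosis was likewise split. Of 15 genes, 14 were tested, and in female knockouts 4 were higher and 4 lower, against 17.6% and 19.3% of all genes, with a median of 0.09 against 0.03. Rab3d, a GTPase of acinar granules (−0.86, adjusted p = 0.00052), and Rab27a (−0.645, adjusted p = 0.00071) were lower, and Stxbp2 (0.84, adjusted p = 0.00066) and Unc13b (1.04, adjusted p = 0.0018), which prime vesicles for fusion, were higher. In male wild type 6 were higher and 4 lower, against 20.5% and 16%, with a median of 0.22 against 0.06, and Unc13b was higher (2.40, adjusted p = 2.3e-06).

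Of the 10 receptors and partners of membrane mucins, 9 were tested. In female knockouts 0 were higher and 4 lower, against 17.6% and 19.3% of all genes, with a median of 0.00 against 0.03. The 4 were Met, Ctnnb1 (−0.43, adjusted p = 0.0091), which encodes the beta-catenin that binds the tail of Muc1, Erbb4 (−0.69, adjusted p = 0.010) and Grb2 (−0.40, adjusted p = 0.013). The call of Erbb4 was lost with the authors' factors (−0.19). In male wild type 1 was higher and 2 were lower, against 20.5% and 16%. Lgals3, a galectin that binds mucin sugars, was higher (2.70, adjusted p = 5.6e-07), and Erbb4 (−1.72, adjusted p = 1.4e-05) and Egfr (−0.50, adjusted p = 0.0073) were lower. Msln, which encodes the mesothelin bound by Muc16, had 0 to 19 counts and was highest, with 18 and 19, in female knockout 3 and male wild type 3. In male knockouts 0 genes of any of these 4 lists were called by edgeR. Over all genes, 2056 of 17893 had an unadjusted p under 0.05 in that comparison. DESeq2 called 1 goblet gene and 1 exocytosis gene higher, and 1 O-glycan enzyme and 1 receptor gene lower, where it called 1.22% of all genes higher and 0.98% lower.

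The counts of called genes on these lists were also taken without female knockout 2, male wild type 3 and male knockout 2. In female knockouts there were then 1 higher and 1 lower among the other mucin-family genes, 0 and 2 in the goblet and mucous programme, 2 and 5 among the O-glycan enzymes, 2 and 3 in exocytosis, and 0 and 4 among the receptors and partners, where 13.7% of all genes were higher and 15.9% lower. In male wild type against female wild type the same lists gave 3 and 4, 0 and 5, 6 and 5, 5 and 3, and 1 and 2, where 15% of all genes were higher and 10.7% lower, and the median of the O-glycan enzymes was −0.02, against 0.26 with all libraries. Of the 6 mucins tested without these libraries, Muc2 was called in female knockouts, Muc13 and Muc2 between the sexes in wild type, and Muc13 between the sexes in knockout, where 17.7% of all genes were higher and 12.8% lower. In the same edgeR fit 0 mucins were called in male knockouts, where 0.011% of all genes were higher and 0.033% lower, and 0 for the difference between the sexes in the genotype effect, where the shares were 4.46% and 3.5%.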

How the data were processed

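Submandibular glands of 12 mice were sequenced. As deposited by the authors, estimated counts per gene came from Salmon 1.10.1 on Gencode M35 transcripts (GRCm39), and 78.7% of them, zeros included, were exactly whole (47.7% of those above 0). The labels name the molecule as polyA RNA and the preparation as rRNA-depleted total RNA. The paper's methods also state rRNA-depleted libraries, so the label of the molecule conflicts with the stated preparation. A second deposited table, of signal values, holds the authors' estimated counts divided by factors whose making is not stated, and it served only as an alternative normalization. Identifiers were paired with symbols through Gencode M39 (55563 of 56065 matched). Here the estimated counts were rounded, filtered with filterByExpr, normalized by TMM and fitted with the edgeR (4.0.16) quasi-likelihood test under R 4.3.3, with all 4 groups in 1 model. Genes with a Benjamini-Hochberg adjusted p under 0.05 over 17893 tested genes were called. Nothing in the labels ties libraries beyond their groups, and p-values measure the spread between these samples. The fit was also run on counts simulated from its own estimates of spread, with known changes in the female knockout group only. No result given here rests on that run. Alternatives were other normalizations and filters, DESeq2 1.42.0 on all 4 groups, edgeR fits of 2 groups, a replicate block and leaving out each library. Correlations used log2 CPM with a prior count of 2. Counting intervals were exact, at 95%, and cover counting error only. Repeats and motifs were sought in sequences read from GRCm39.

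The members and lists were chosen with earlier results of these data known. All 10 mucins are named. From each list, up to 4 called genes with the smallest adjusted p in a comparison are named, and for each tested mucin the 3 genes with the most similar pattern. Some genes that this rule names are not reported here. Other named genes, the intestinal and neuronal lists, the comparison of the sexes in knockout mice and the joint removal of 3 libraries were chosen after the values were seen. How Salmon shared reads among repeated or shared exons was not tested.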

Additional observations from a re-analysis of the deposited data

Results flagged for a closer look

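The genotype effect on Muc2 differed between the sexes: the log2 fold change of knockout against wild type was larger in females by 6.31 (SE 1.94, edgeR quasi-likelihood test of the interaction, adjusted p = 0.032). For this interaction 13.4% of all genes were called higher and 12.4% lower. All 3 female knockout libraries exceeded all 3 female wild-type libraries, as did 25.2% of all genes, and the male groups overlapped. The difference was 3.53 (adjusted p = 0.10) without female knockout 2, the library with 219 of the 239 counts and with intestinal genes, and 3.13 (adjusted p = 0.12) without female knockout 2, male wild type 3 and male knockout 2. With the replicate block it was 5.58 (adjusted p = 0.066), and the call was lost without any 1 of 8 libraries. The part of intestinal RNA in it was not tested.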

How the results depend on the processing

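Muc13 was called higher in males than females under each alternative run, in both genotypes, and no mucin was called in male knockouts against wild type under any alternative. DESeq2 on the males alone was not among these alternatives, and the paper reports reduced Muc20 in male knockouts. In females, where 1 mucin was called, 2 were called under upper-quartile normalization and 2 without the filter on low counts (Muc13 added), and 0 with at least 10 counts in every library or in a fit of the female groups alone, neither of which tests Muc2. Without female knockout 2, male wild type 3 and male knockout 2, Muc2 stayed called (3.08, adjusted p = 0.035). Leaving out 1 library gave 0 to 3, with 0 without female knockout 2 and 3 (Muc1, Muc2 and Muc16) without female wild type 1. For the difference between the sexes in the genotype effect, 1 call became 2 without the filter (Muc19 added), 0 with the replicate block and 0 without those 3 libraries, and 0 to 2 without 1 library. Between the sexes in wild type, 1 call became 2 in a fit of those groups alone and 2 without the 3 libraries (Muc2 added). In knockout, 2 calls became 1 with at least 10 counts, with the block, in a fit of those groups alone, with DESeq2 and without the 3 libraries, and 1 to 2 without 1 library. Where a call changed, the cause was not tested, except that fewer genes or samples entered some fits.

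Replicate numbers are shared between groups, but libraries with the same number did not deviate together (correlations −0.11 to 0.05 between the genotypes in females and −0.13 to 0.09 in males, and between the sexes −0.06 to 0.27 in wild type and −0.04 to 0.09 in knockout). Of these 12 correlations only that of wild type 1 of the sexes, 0.27, was over 0.1, so the numbers were not taken to pair the libraries. With the replicate block, Muc19 turned to −2.59 in females, 1.53 in males, −4.12 for their difference, −2.61 between the sexes in wild type and 1.503 in knockout. Muc16 turned to 0.0211 between the sexes in wild type and Muc15 to −0.0255 in knockout under the block, and Muc15 to −0.0919 with upper-quartile normalization. Without the 3 libraries, Muc19 was 4.28 in males and −4.44 between the sexes in wild type, and Muc16 was −0.32 and 0.42. The interaction of Muc16 was −0.0376 with RLE normalization, −0.0443 without the 20 most abundant genes, −0.0130 with DESeq2 and −1.71 with the authors' factors, which also gave 0.17 between the sexes in knockout. None of these was called.

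Leaving out 1 library at a time changed the sign of several uncalled log2 fold changes. In females the ranges were −0.14 to 3.37 for Muc16, −3.07 to 7.47 for Muc19 and −0.29 to 0.21 for Muc20. In males they were −1.55 to 0.0723 for Muc2, −0.21 to 0.0062 for Muc13, −0.39 to 0.84 for Muc15, −0.0546 to 1.74 for Muc16 and −8.53 to 3.72 for Muc19. For the interaction they were −0.47 to 1.67 for Muc1 and −1.29 to 2.89 for Muc16. Between the sexes in wild type they were −0.84 to 1.31 for Muc1, −1.38 to 2.86 for Muc16 and −4.45 to 8.08 for Muc19, and in knockout −0.57 to 0.59 for Muc15, −0.35 to 0.16 for Muc16 and −7.94 to 2.33 for Muc19. Of all log2 fold changes recomputed, 652 kept direction and side of the threshold, 12 came to pass it, 18 ceased to pass it and 49 changed sign. Low counts, at most 17 of Muc2 outside female knockout 2, 16 of Muc15 and 32 of Muc16 in a library, limit the precision for these mucins.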
